A study of Mus musculus with 10 samples.

Results

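The wild type expression profile of pre-B cell colonies was read from 5 of the 10 arrays of the series, those whose labels give the mice as wild type littermates with the genotype Hspa9+/+. All 5 were used and no array of the group was left out. The genes described are the 19938 whose symbol is borne by a probe set (the probes that the array design reads as 1 value) listed with 1 symbol only, and each gene stands for 1 probe set. The other 5 arrays, from Hspa9+/- mice, entered only the choice of probe set and were not compared with the wild type.

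Bone marrow of each mouse was cultured on its own in M3630, a methylcellulose medium for pre-B colony-forming cells, and colonies were picked on day 7. B220+ cells were then sorted from the colonies into a phenol-based lysis reagent, so each array is 1 mouse and 1 sorted culture. No treatment was applied, and no sex, age or strain is used here. cDNA was amplified from small amounts of RNA with a NuGEN kit before hybridisation to Mouse Gene 1.0 ST arrays, and values are RMA log2 signals, on which 1 unit is a 2-fold difference. Such colonies grow from committed B cell precursors under culture conditions, so they are a model of expanding precursors and not of marrow in place. B220, the marker used for the sort, is a form of the CD45 protein that B lineage cells share with plasmacytoid dendritic cells.

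Pre-B cells are B lymphocyte precursors that have joined an immunoglobulin heavy chain gene and have not yet made a light chain. They display the heavy chain with a surrogate light chain, built from the products of Igll1 and the Vpreb genes, as the pre-B cell receptor. Signals from this receptor and from the interleukin 7 receptor drive their division, and RAG proteins cut the light chain genes once division slows. The transcription factors E2A, EBF1 and PAX5 set and hold B lineage identity.

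The 5 arrays did not lie equally close to each other. WT1 to WT5 are the wild type replicates by the numbers of their labels. Over the genes above the detection line explained below, Pearson's r ran from 0.874, between WT1 and WT4, to 0.992, between WT3 and WT4. The first principal component of the same genes held 75.1% of the variance. Its loadings were 0.71 for WT1, 0.32 for WT2, -0.39 for WT3, -0.44 for WT4 and -0.20 for WT5. WT1 lay farthest out, with WT2 on the same side. The mean level of 16 monocyte and macrophage genes was 8.97 in WT1, 7.53 in WT2, 5.83 in WT3, 5.68 in WT4 and 5.77 in WT5. The part that this difference plays in the other spreads given here was not tested, and values without WT1 and WT2 are given beside several of the results that rest on them. In RNA from a bulk sort, fewer cells of a type and less RNA per cell cannot be told apart.

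An array value has no true zero, so a reference for unexpressed genes was taken from 1178 olfactory and vomeronasal receptor genes, whose products belong to sensory tissue. Their median level was 3.45 and the 95th percentile of their means was 5.10, which is called the detection line. Of the 19938 genes, 12216 or 61.3% lay above it, and the median of all genes was 5.64. That share of 61.3% is the background for every count of list members above the line given below. The line is a guide and not a proof of transcription: 8 of 25 genes typical of non-blood tissues lay above it, with Prm1, a sperm nuclear protein, highest at 7.00, and 1 receptor gene reached 7.56. Between 11880 genes in WT3 and 12347 in WT5 were above the line on a single array. Probe sets differ in how well they bind, so the order of genes below is an order of array signal, not of RNA molecules per cell.

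**Figure D1:**
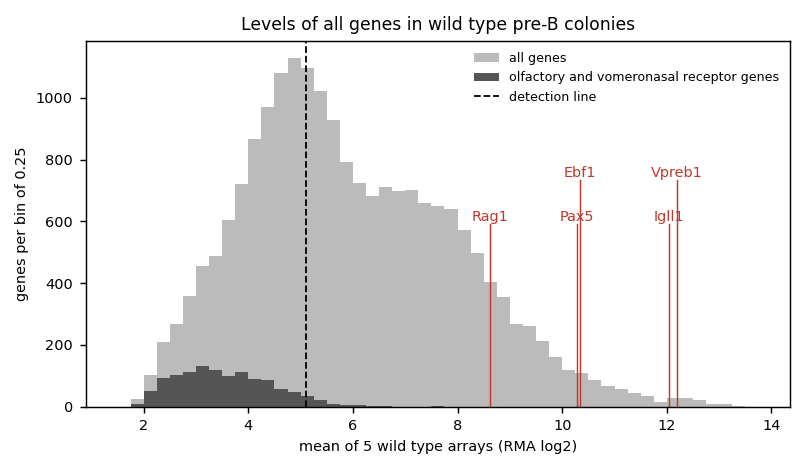
Number of genes in each bin of 0.25 by mean RMA log2 level over the 5 wild type arrays, for all 19938 genes (light) and for the 1178 olfactory and vomeronasal receptor genes (dark), with the detection line at 5.10. The receptor genes fill the left of the plot, and Rag1, Pax5, Ebf1, Igll1 and Vpreb1, marked by vertical lines, lie between 8.63 and 12.19.

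The top of the profile was taken by the machinery of protein synthesis. Of the 30 genes of highest mean, 21 encode proteins of the cytosolic ribosome, and the lowest of the 30 had a mean of 12.62. Rps29, a small-subunit protein, came first at 13.30 ± 0.03 (SD, n = 5), with 13.26 in WT1, 13.31 in WT2, 13.30 in WT3, 13.32 in WT4 and 13.33 in WT5. The arrays lay within 0.07 of each other. Among the rest of the 30 were Eef1a1, the elongation factor that brings aminoacyl-tRNA to the ribosome, at 13.19 ± 0.05 (SD, n = 5), and Actb, cytoplasmic actin, at 13.13 ± 0.06 (SD, n = 5). H4c4, a histone H4 gene transcribed in S phase, had a mean of 13.17 ± 0.10 (SD, n = 5). Ppia (cyclophilin A), Tmsb10 (a thymosin that binds actin monomers), Ly6e (a membrane-anchored protein of lymphoid cells) and COX2 (the symbol of a cytochrome oxidase subunit encoded in mitochondrial DNA) lay between 12.67 and 12.75. The 1 small nuclear RNA gene among them had the largest SD of the 30, 0.28, and was highest in WT1 at 13.13 and lowest in WT3 at 12.52.

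Several places in this order are uncertain. Baiap2l1, a membrane-shaping adaptor gene, ranked second at 13.28, but its 3 probe sets had means of 13.28, 10.99 and 4.78 and so did not measure the same thing. Ribosomal protein genes have many near-identical copies, and Rps12 alone had 14 probe sets with its symbol, so signals of that family may be shared between copies. Within the first 100 genes, whose lowest mean was 11.86, there were 42 cytosolic ribosomal proteins, 8 nuclear-encoded subunits of oxidative phosphorylation, 4 histones and 4 genes of the surrogate light chain and immunoglobulin signalling list, namely Vpreb3, Cd79b, Vpreb1 and Igll1.

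The label of the colonies was checked against Rag1, Pax5, Ebf1, Igll1 and Vpreb1, and all 5 genes lay above the detection line on every array. Igll1, which encodes the lambda-5 chain of the surrogate light chain, measured 12.16 in WT1, 12.22 in WT2, 11.98 in WT3, 11.93 in WT4 and 11.87 in WT5, with a mean of 12.03 ± 0.15 (SD, n = 5) and rank 93. Vpreb1, which encodes the other chain of that pair, measured 12.39, 12.35, 12.07, 12.07 and 12.09 in the same order, with a mean of 12.19 ± 0.16 (SD, n = 5) and rank 73. Both genes were higher in WT1 and WT2 than on any other array, with spans of 0.34 and 0.32 log2 units. Ebf1, a transcription factor required for B lineage entry, measured 9.77, 9.80, 10.83, 10.99 and 10.30, with a mean of 10.34 ± 0.57 (SD, n = 5). Pax5, which holds cells in the B lineage, measured 9.40, 9.56, 11.06, 10.94 and 10.44, with a mean of 10.28 ± 0.77 (SD, n = 5). These factors had their lowest values in WT1 and WT2, where the macrophage genes were highest; without those arrays the means were 10.71 for Ebf1 and 10.81 for Pax5. Rag1, the cutting subunit of the V(D)J recombinase, measured 8.58, 8.60, 8.43, 8.40 and 9.12, with a mean of 8.63 ± 0.29 (SD, n = 5), and WT5 stood above the others.

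**Figure D2:**
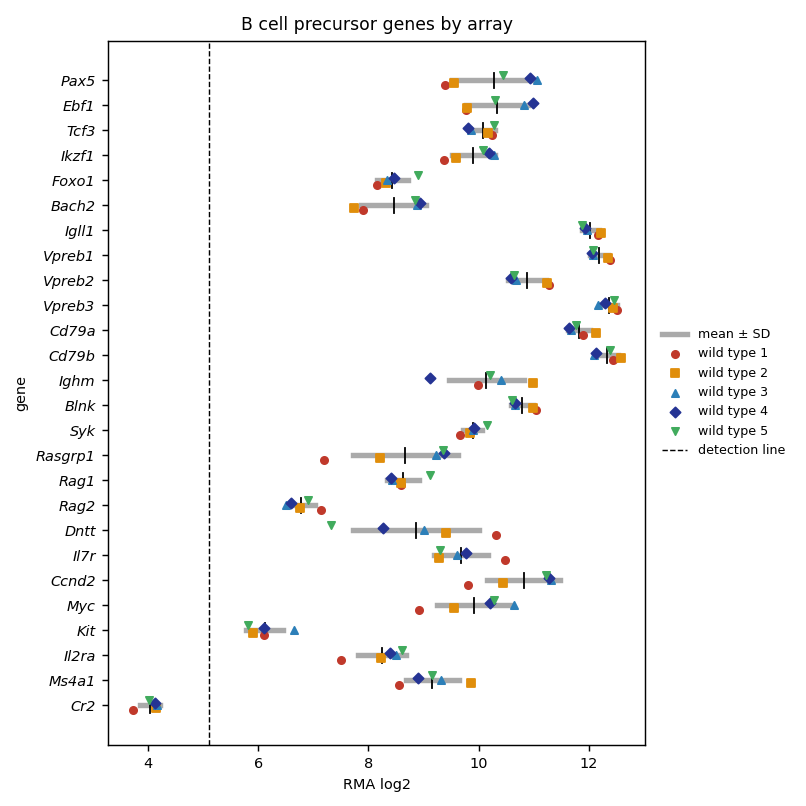
RMA log2 levels of 26 B cell precursor genes on each of the 5 wild type arrays (points), with the mean (tick) and mean ± SD (grey bar) and the detection line at 5.10 (dashed). The surrogate light chain and CD79 genes lie farthest right with narrow bars, Dntt runs from 10.33 in WT1 to 7.31 in WT5, and Cr2 lies left of the line on every array.

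The surrogate light chain and immunoglobulin signalling genes formed the list with the second highest median after the ribosomal proteins. All 7 measured members were above the detection line, and the list median was 12.03, at the 99.5th percentile of all genes. Vpreb3, a chaperone-like relative that binds heavy chains inside the cell, was highest at 12.38 ± 0.14 (SD, n = 5). Cd79b and Cd79a, the signalling chains of the receptor, had means of 12.33 ± 0.21 and 11.82 ± 0.20 (SD, n = 5), and both were highest in WT2. Vpreb2, the near copy of Vpreb1, measured 11.29 in WT1, 11.24 in WT2, 10.67 in WT3, 10.59 in WT4 and 10.65 in WT5. Ighm, the constant region of the mu heavy chain, measured 10.99 in WT2, 10.41 in WT3, 10.20 in WT5 and 9.12 in WT4, with WT1 between the last pair and a mean of 10.14 ± 0.68 (SD, n = 5). Its 3 probe sets had means of 10.14, 7.67 and 7.57, so the level of Ighm depends on the one taken. Igkc and Ighd were not analysed here. Leaving out WT1 and WT2 gave a list median of 11.93.

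Vpreb1 and Vpreb2 lie on chromosome 16 and share sequence ahead of their starts as well as in their coding parts, so their probe sets may read both transcripts. In the RefSeq promoter sequences of GRCm38.p6, 102 of 103 aligned bases were identical between the blocks shown next, which are printed because both genes were highest on the same arrays, WT1 and WT2. The Vpreb1 block is chr16:16869259-16869361 on the minus strand, from 106 to 4 bases ahead of the annotated start. The Vpreb2 block is chr16:17980315-17980417 on the plus strand, from 250 to 148 bases ahead; 250 is the edge of the sequence given, so the likeness may run on beyond it. The base in capitals is the one at which they differ.
Vpreb1: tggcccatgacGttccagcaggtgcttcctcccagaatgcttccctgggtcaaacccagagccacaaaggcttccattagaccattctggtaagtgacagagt
Vpreb2: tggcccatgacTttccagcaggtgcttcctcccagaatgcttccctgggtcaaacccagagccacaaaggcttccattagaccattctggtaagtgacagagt

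The B cell transcription factors were all above the line, 25 of 25, with a median of 9.23 at the 93.6th percentile. Pou2af1, the coactivator of octamer-binding factors, was highest at 11.26 and nearly level, with an SD of 0.07 and a span of 0.16 over the arrays. Spib, an ETS factor, followed at 10.94 ± 0.21 (SD, n = 5), and Myb, required for early lymphoid precursors, at 10.41 ± 0.21 (SD, n = 5). Tcf3, which encodes E2A, had a mean of 10.07 ± 0.22 (SD, n = 5). Ikzf1 and Ikzf3, which encode Ikaros and Aiolos, had means of 9.91 and 9.44 and were lowest in WT1 at 9.38 and 8.82. Bach2, a repressor active in pre-B cells, measured 7.90 in WT1, 7.74 in WT2, 8.89 in WT3, 8.93 in WT4 and 8.85 in WT5, a mean of 8.46, and 8.89 without WT1 and WT2. Spi1, which encodes PU.1 and is shared with myeloid cells, ran the other way, with 9.57, 9.33, 8.36, 8.44 and 8.78. Irf8, also shared with myeloid and dendritic cells, measured 9.71, 9.91, 9.16, 8.96 and 9.20. WT1 was the lowest array for 12 of the 25 factors, against 29.1% of all genes above the line, and WT3 was the highest for 10, against 18%. Gfi1, a repressor, was the lowest of the list at 5.66.

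EBF1 binds a palindrome that can be written as TCCC, then any 2 bases, then GGGA, which reads the same on both strands. It occurred in the promoters (250 bases ahead of to 50 bases after the start) of 287 of 27025 genes in the RefSeq table, or 1.06%. Of the 96 genes of the B cell precursor lists that have a promoter there, 2 held it, Cd22 and Foxo1. The windows are shown because these are the matches in the lists, with the motif in capitals. For Cd22, an inhibitory receptor of B cells, the window shown is chr7:30879058-30879087 on the minus strand, and for Foxo1, a factor that activates Rag genes, it is chr3:52268235-52268264 on the plus strand.
Cd22: tcctgcaagaTCCCTGGGGActcacacaga
Foxo1: tactgccgccTCCCGAGGGAaggcagcgcc
Cd22 measured 8.48 in WT1, 9.54 in WT2, 9.50 in WT3, 9.53 in WT4 and 9.70 in WT5, with WT1 alone below the rest. Foxo1 measured 8.16, 8.32, 8.33, 8.47 and 8.90, highest in WT5, as was Rag1. The 5 promoters given for the surrogate light chain and immunoglobulin signalling list did not hold these letters in this window, which says nothing about binding elsewhere.

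The kinases and adaptors next to the receptor had a median of 8.90, at the 91.7th percentile, and 20 of 20 were above the line. Blnk, the adaptor that links Syk to phospholipase C, was highest at 10.80 ± 0.20 (SD, n = 5), and Syk itself, the kinase recruited to CD79, was at 9.89 ± 0.18 (SD, n = 5). Btk and Plcg2, the kinase and phospholipase that act with Blnk, lay at 8.93 ± 0.14 and 8.87 ± 0.14 (SD, n = 5). Inpp5d and Ptpn6, phosphatases that restrain these signals, had means of 9.92 ± 0.05 and 9.73 ± 0.31 (SD, n = 5). Rasgrp1, which activates Ras, was the only member whose arrays spanned 2 log2 units or more, a size reached by 3.06% of all genes above the line. It measured 7.20 in WT1, 8.20 in WT2, 9.22 in WT3, 9.38 in WT4 and 9.35 in WT5; WT1 was lowest, WT2 next, and the remaining 3 arrays lay within 0.16, and the mean was 8.67 with all arrays and 9.32 without WT1 and WT2. Dok3, an adaptor that dampens the receptor, measured 8.86, 8.75, 7.71, 7.76 and 8.18 and so was highest in WT1 and WT2. Rasgrp3 was the lowest member at 6.71.

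Genes of V(D)J recombination and end joining were all above the line, 15 of 15, but sat lower, with a median of 7.25 at the 73.4th percentile. Hmgb2, a DNA-bending protein that assists RAG cutting and is abundant in dividing cells, was highest at 12.09 ± 0.26 (SD, n = 5). Rag2, the partner of Rag1, measured 7.14 in WT1, 6.77 in WT2, 6.50 in WT3, 6.60 in WT4 and 6.90 in WT5, a mean of 6.78 ± 0.25 (SD, n = 5). Dntt, which encodes the polymerase TdT that adds bases without a template at heavy chain joins in pro-B cells, had the widest range of the list. It measured 10.33, 9.41, 9.01, 8.27 and 7.31, a mean of 8.87 ± 1.14 (SD, n = 5), and the mean without WT1 and WT2 was 8.20. No pair of arrays lay closer than 0.40 for Dntt, and a span of 1.70 remained among WT3, WT4 and WT5.

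Among the repair factors, Xrcc6 and Xrcc5, the Ku subunits that hold broken ends, had means of 9.18 ± 0.09 and 7.76 ± 0.56 (SD, n = 5). Xrcc5 measured 6.98 in WT1, 7.36 in WT2, 8.20 in WT3, 8.26 in WT4 and 8.01 in WT5, and its mean without WT1 and WT2 was 8.16. Prkdc and Atm, the large kinases that sense double-strand breaks, had means of 6.49 and 7.02 and were both highest in WT4, at 7.21 and 7.74. Lig4 and Xrcc4, which seal the joins, lay at 7.83 ± 0.11 and 7.25 ± 0.17 (SD, n = 5).

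The interleukin 7 receptor pathway, which the culture depends on, had 10 of 10 measured members above the line and a median of 7.79. Il7r, the receptor's own chain, measured 10.48 in WT1, 9.28 in WT2, 9.60 in WT3, 9.78 in WT4 and 9.30 in WT5, a mean of 9.69 ± 0.49 (SD, n = 5), with WT1 above the rest. Jak1, the kinase bound to that chain, was at 9.62 ± 0.22 (SD, n = 5). Stat5b and Stat5a, the factors the pathway activates, were at 7.51 ± 0.11 and 7.40 ± 0.12 (SD, n = 5). Il2rg and Jak3 were not analysed here. Crlf2, the chain that makes Il7r a receptor for thymic stromal lymphopoietin, was lowest at 7.32.

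Of the feedback and target genes of STAT5, 14 of 14 were above the line with a median of 7.40. Ccnd2, the cyclin D2 gene, measured 9.82, 10.44, 11.32, 11.28 and 11.23 from WT1 to WT5, a mean of 10.82 ± 0.67 (SD, n = 5). Myc, which drives growth and division, measured 8.92, 9.56, 10.64, 10.22 and 10.27, a mean of 9.92 ± 0.68 (SD, n = 5). Socs2, a feedback inhibitor, measured 9.28, 9.53, 10.63, 10.61 and 10.23. All 3 genes were lowest in WT1 and next lowest in WT2, and without those arrays the means were 11.28 for Ccnd2, 10.38 for Myc and 10.49 for Socs2. Ccnd3, the cyclin D3 gene that pre-B cells need for expansion, measured 10.75, 10.88, 10.45, 10.17 and 10.17 and was highest in WT1 and WT2. Pim1 and Mcl1, a growth kinase and a survival protein, had means of 9.61 ± 0.25 and 9.93 ± 0.19 (SD, n = 5). Cish, Socs1 and Socs3, the other feedback inhibitors measured, were at 7.75, 6.55 and 6.27.

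Surface genes of B precursors gave high signals. All 14 measured surface genes were above the line, with a median of 9.66 at the 95.7th percentile. Cd24a, the heat stable antigen, was highest at 12.28 ± 0.08 (SD, n = 5). Ptprc, whose protein was the sorting marker, measured 9.57 in WT1, 9.35 in WT2, 9.89 in WT3, 10.07 in WT4 and 9.47 in WT5, a mean of 9.67 ± 0.30 (SD, n = 5); the probe set does not separate the B220 form from other forms of CD45. Il2ra, which encodes CD25 and marks pre-B over pro-B cells, measured 7.50, 8.23, 8.50, 8.40 and 8.60, lowest in WT1. Cd2, a marker that mouse B precursors gain at the small pre-B stage, measured 9.18, 10.48, 9.22, 9.36 and 10.03, highest in WT2 and next in WT5.

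Genes of earlier stages were lower. Of 13 early progenitor and pro-B genes, 11 were above the line, against 61.3% of all genes, and the list median was 7.13. Ly6d, which marks lymphoid progenitors bound for the B lineage, was highest at 11.67 ± 0.47 (SD, n = 5), and Cd93, an antigen of early B cells, was at 9.78 ± 0.42 (SD, n = 5). Kit, the stem cell factor receptor of pro-B cells, measured 6.10, 5.90, 6.65, 6.10 and 5.81 from WT1 to WT5, and Flt3, a receptor of earlier lymphoid progenitors, had a mean of 5.96 ± 0.35 (SD, n = 5). Cd34 at 4.98 and Gata3 at 4.49, genes of stem and T lineage cells, had means below the line.

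Of 14 genes of immature and mature B cells, 12 were above the line, against 61.3% of all genes, and the list median was 7.50. Tnfrsf13c, the BAFF receptor, and S1pr1, the receptor for exit into blood, had means of 9.58 ± 0.22 and 9.74 ± 0.26 (SD, n = 5). Ms4a1, which encodes CD20, measured 8.56 in WT1, 9.86 in WT2, 9.32 in WT3, 8.91 in WT4 and 9.15 in WT5. Cd40, a receptor for T cell help, measured 6.91, 8.46, 6.80, 6.93 and 7.80, highest in WT2 and next in WT5. Fcer2a, which encodes CD23 of mature follicular cells, was above the line in WT1 at 5.57 and WT2 at 6.46 and between 4.57 and 4.70 on the other arrays. Cr2, the complement receptor of mature cells, at 4.03 ± 0.19, and Ccr6, a chemokine receptor, at 4.47 ± 0.12 (SD, n = 5), were below the line.

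MHC class II genes, which present antigen and are carried by B cells and dendritic cells, had 8 of 8 measured members above the line and a median of 9.38. Cd74, the invariant chain, was highest at 11.27 ± 0.30 (SD, n = 5), and H2-Aa, a class II alpha chain, measured 10.56, 11.33, 10.39, 10.45 and 11.02 from WT1 to WT5. WT2 was the highest array for 7 of the 8 genes, against 23.7% of all genes above the line. H2-Oa, a modulator of peptide loading, was the member with the largest spread, with 9.25, 9.34, 7.61, 7.28 and 8.11. Ciita, the class II transactivator, was lowest at 6.78, with 5.93 in WT1 and 7.21 in WT5.

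Genes of the cell cycle gave high levels. The median of 25 genes of G2 and mitosis was 9.60, at the 95.5th percentile, and that of 36 DNA replication genes was 8.92. Every measured member of both lists was above the line. Ccna2, cyclin A2, was the highest of the mitosis list at 11.22 ± 0.24 (SD, n = 5), and Top2a, the topoisomerase that untangles chromosomes, was at 10.53 ± 0.59 (SD, n = 5). The 2 probe sets of Top2a had means of 10.53 and 7.02. The first was highest in WT4 at 11.19 and the second in WT1 at 7.78, so its level and array order depend on the one taken. Pcna, the sliding clamp of DNA polymerases, was the highest replication gene at 11.80 ± 0.18 (SD, n = 5), with 11.54 in WT1, 11.68 in WT2, 11.89 in WT3, 11.98 in WT4 and 11.91 in WT5. WT1 was the lowest array for 30 of the 36 replication genes, against 29.1% in the background. WT4 was the highest array for 14 of the 25 mitosis genes, against 15.3%. Cenpe and Cenpf, kinetochore proteins, each spanned more than 2 log2 units. Cenpe measured 7.12, 6.74, 8.23, 8.82 and 6.89, so WT3 and WT4 stood above the other 3 arrays. Of 26 replication-dependent histone genes 25 were above the line, and WT1 or WT2 was the highest array for 23 of those 25, where one or the other was for 48.3% of all genes above the line.

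Ribosomal and metabolic lists differed in level and had small spreads, with SDs of the list mean under 0.2. The 53 cytosolic ribosomal proteins had a median of 12.51 and list means between 11.90 in WT1 and 12.06 in WT2, and WT1 was the lowest array for 37 of them, against 29.1% of all genes above the line. The 68 nuclear-encoded oxidative phosphorylation genes had a median of 10.67, led by Cox6a1, a cytochrome oxidase subunit, at 12.37 ± 0.03 (SD, n = 5). WT2 was the highest array for 53 of the 68, and for 51 of the 76 mitochondrial ribosomal proteins, whose median was 8.51; it was for 23.7% of all genes above the line. The TCA cycle list had a median of 8.97 with Mdh2, mitochondrial malate dehydrogenase, at 11.77 ± 0.08 (SD, n = 5). Glycolysis had a median of 8.05, with Hk1, a hexokinase, at 11.58 ± 0.13 (SD, n = 5) and Aldoa, aldolase A, at 11.08 ± 0.26 (SD, n = 5). The 2 probe sets of Hk1 had means of 11.58 and 6.84, so its level and its place in the list depend on the one taken. The dimmer one fell from 7.34 in WT1 to 6.30 in WT5. Cholesterol synthesis had a median of 7.85, with Srebf2, the factor that governs it, at 9.20 ± 0.17 (SD, n = 5).

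Protein folding genes showed more spread. The 23 cytosolic and endoplasmic reticulum chaperones had a median of 10.12, and WT3 was the highest array for 16, against 18% of all genes above the line, and WT1 the lowest for 18, against 29.1%. Hspa8, the constitutive HSP70, was at 12.15 ± 0.16 (SD, n = 5). Hsp90aa1, an inducible HSP90, measured 10.46 in WT1, 10.86 in WT2, 11.97 in WT3, 12.02 in WT4 and 11.48 in WT5. Hspd1, the mitochondrial HSP60, measured 9.43, 10.15, 11.44, 11.25 and 10.78, a span of 2.01. Hspa9, the mitochondrial HSP70 and the gene the series was made to study, measured 9.49, 9.57, 10.36, 10.17 and 9.99, a mean of 9.92 ± 0.38 (SD, n = 5). In all 3 genes WT1 was lowest and WT2 next, and without them the means of Hsp90aa1 and Hspd1 were 11.83 and 11.16. The HSP60 partner Hspe1, the mitochondrial HSP10, was at 11.72 ± 0.24 (SD, n = 5), and Hspa1a, the stress-induced HSP70, was much lower at 5.85 ± 0.18 (SD, n = 5).

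Some lists of other cell types had medians of 5.13 or less, close to the detection line or below it, and others were high in WT1 and WT2. Among the former, 3 of 10 T cell genes, 2 of 10 NK cell genes, 2 of 10 mast cell and basophil genes, 4 of 8 erythroid genes and 4 of 11 stromal genes were above the line, where 61.3% of all genes were, with medians of 5.02, 4.28, 4.18, 5.13 and 4.86. Cd3e, a chain of the T cell receptor complex, and Klf1, the erythroid master factor, had means of 5.02 and 4.75, below the line. The 3 T cell genes above the line were Thy1, which is not confined to T cells, at 8.29 ± 0.46 (SD, n = 5), Cd247, a signalling chain of the T cell receptor complex, at 5.86 ± 0.34, and Cd8a, a coreceptor, at 5.18 ± 0.28.

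WT1 was the highest array for all 16 genes of the monocyte and macrophage list, where it was for 24.7% of all genes above the line. By their means 15 of the 16 lay above the line, but 5 of these, Adgre1 and C1qb among them, were below it in WT3, WT4 and WT5 and passed only through WT1 and WT2. Lyz2, lysozyme of myeloid cells, measured 12.82 in WT1, 12.02 in WT2, 9.66 in WT3, 8.98 in WT4 and 8.75 in WT5. Cd68, a lysosomal protein of macrophages, measured 11.94, 9.78, 7.17, 6.80 and 6.74. Csf1r, the receptor for macrophage colony-stimulating factor, measured 9.06, 7.78, 5.10, 5.11 and 5.30. Csf1r was thus near the line in WT3, WT4 and WT5, while Adgre1 (F4/80) and C1qb (a complement chain made by macrophages) were below it there, at 4.15 to 4.88 and 4.40 to 4.79. The list median was 6.19 over all 5 arrays, 5.55 without WT1 and 5.15 without WT1 and WT2.

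The lists of neutrophils, plasmacytoid dendritic cells and megakaryocytes also had higher means in WT1 or WT2, with SDs of 0.5 or more. The eosinophil list, with means of 6.11 in WT1 and 5.73 in WT2 against 5.26 to 5.40 elsewhere, and the conventional dendritic cell list, with 5.16 and 5.03 against 4.52 to 4.71, did so by less. WT1 was the highest array for 2 of the 5 eosinophil genes and 2 of the 6 conventional dendritic cell genes. It was for 24.7% of all genes above the line. Itgax, which encodes CD11c of dendritic cells and macrophages, measured 8.31, 6.61, 5.37, 4.91 and 4.91 from WT1 to WT5. Its SD of 1.46 was the largest of the conventional dendritic cell list, whose median SD was 0.15. Batf3 of that list measured 5.31, 5.29, 5.25, 4.92 and 5.29, and Clec9a lay between 3.37 and 3.69, below the line. S100a8, a neutrophil and monocyte calcium-binding protein, measured 10.76, 8.55, 6.54, 5.85 and 7.19 from WT1 to WT5, and Mpo, myeloperoxidase of granule-forming precursors, measured 7.10, 5.87, 4.99, 5.00 and 5.19. Of the 17 neutrophil genes 12 were above the line, where 61.3% of all genes were. The list median was 5.25, near the line, and 5.06 without WT1 and WT2. WT1 was the highest array for 14 of the 17, WT3 for 1 and WT5 for 2. Pf4, a platelet chemokine, measured 10.76, 7.59, 5.40, 5.42 and 4.80, and Ppbp, another one, measured 8.18 in WT1 and between 3.90 and 4.15 elsewhere. Itga2b, which encodes the platelet integrin chain CD41, did not follow them, with 5.55, 5.56, 5.10, 5.46 and 5.40. Siglech, a receptor of plasmacytoid dendritic cells, measured 6.51, 7.22, 5.59, 5.34 and 5.65, highest in WT2. Cox6a2 of the same list measured 9.87, 8.75, 6.82, 7.24 and 6.91, highest in WT1. The median of the plasmacytoid list was 6.06, and 5.53 without WT1 and WT2. Plasmacytoid dendritic cells carry B220, while macrophages, neutrophils and platelets as a rule do not. Which cells the signal came from was not tested.

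**Figure D3:**
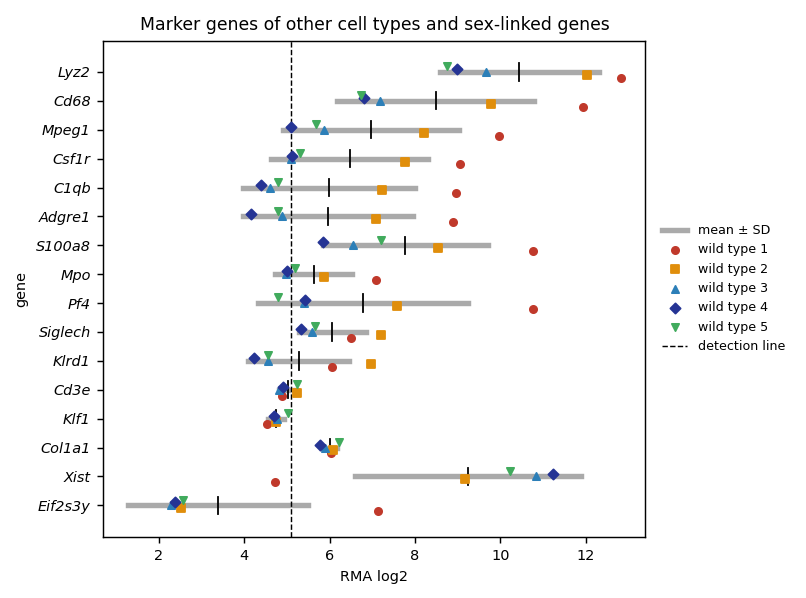
RMA log2 levels of marker genes of other cell types and of sex-linked genes on each of the 5 wild type arrays (points), with the mean (tick), mean ± SD (grey bar) and the detection line at 5.10 (dashed). For Lyz2, Cd68, Csf1r, S100a8 and Pf4 the points of WT1 and then WT2 lie to the right of the other 3, and for Xist and Eif2s3y WT1 lies alone.

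Sex-linked genes also set WT1 apart. Xist, the RNA that silences an X chromosome in females, measured 4.73 in WT1, 9.16 in WT2, 10.83 in WT3, 11.24 in WT4 and 10.22 in WT5. Eif2s3y, a Y chromosome gene, measured 7.14 in WT1 and between 2.29 and 2.57 on the other arrays. Kdm5d and Uty, also on the Y chromosome, were at 6.03 and 6.39 in WT1 and at most at 3.88 and 3.49 elsewhere. The labels give no sex for these mice, and WT1 is both the array with Y-linked signal and the one with most macrophage signal, so these differences cannot be told apart within this group.

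Spread between mice was small for most genes. The median SD of the 12216 genes above the line was 0.24, and 90% of the SDs lay between 0.08 and 0.72. A span of 1 log2 unit or more was seen in 2312 genes, of 2 or more in 374 and of 3 or more in 156. Of the 374, WT1 was the highest array for 323 or 86.4%, where it was for 24.7% of all genes above the line. WT2 came second to it for 311 genes, but the share of all genes above the line with that order is not given here. The filter used the mean of all 5 arrays, so genes dim in WT3, WT4 and WT5 could pass it through WT1 and WT2. The share of 86.4% therefore depends in part on the filter. Without WT1 the count of 374 was 102, and without WT1 and WT2 it was 6. The wide genes thus rest on those arrays.

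Of the 20 genes with the largest SD, Cd68 was in the macrophage list, Pf4 in the megakaryocyte list and Xist in the sex-linked list, and the other 17 were in none of the lists. Anpep, a membrane aminopeptidase of myeloid cells, was first with 11.83 in WT1, 9.26 in WT2, 6.36 in WT3, 5.39 in WT4 and 5.18 in WT5, an SD of 2.87. It was followed by Wfdc17, a secreted protein of activated macrophages, with an SD of 2.81, and Atp6v0d2, a proton pump subunit of macrophages and osteoclasts, with an SD of 2.69. Mmp12 (macrophage elastase), Ctsl (cathepsin L), Fcer1g (the Fc receptor gamma chain), C3ar1 (a complement receptor), Ccl2 and Ccl3 (chemokines) and Lpl (lipoprotein lipase) were among the rest. WT1 was the highest and WT2 the second highest array for 19 of the 20, the exception being Xist. WT1 was the highest for 24.7% of all genes above the line, and the share with WT2 second as well is not given here. The same filter applied here: C3ar1, with a mean of 4.50 without WT1 and WT2, passed the line only through them. At the other end, Atf4, a factor of the stress response whose activity is set largely by translation, had the smallest SD, 0.014, around a mean of 10.21. Dbi, an acyl-CoA binding protein, had an SD of 0.015 around 11.25, and Rps21 and Rpl27, both ribosomal, were among the 10 steadiest genes as well.

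**Figure D4:**
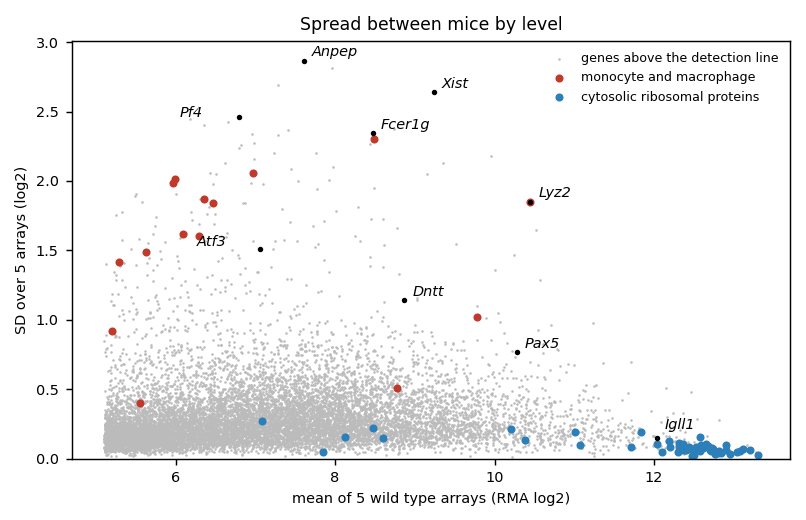
SD over the 5 wild type arrays (vertical, log2 units) against mean RMA log2 level (horizontal) for the genes above the detection line, with monocyte and macrophage genes in red and cytosolic ribosomal proteins in blue. Anpep at 2.87 and Xist at 2.64 lie at the top, Dntt at 1.14 and Pax5 at 0.77 lie between, and ribosomal proteins lie along the bottom right.

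Set against each other, 40 gene lists differed in how steady they were. The SD over arrays of the list mean was under 0.2 for 24 lists and 0.5 or more for 5, namely macrophage at 1.46, megakaryocyte at 0.87, plasmacytoid dendritic cell at 0.70, neutrophil at 0.67 and sex-linked genes at 0.53. The sex-linked list joins Xist, lowest in WT1, with Y-linked genes highest there, and these offset each other in its mean. The median SD of its single genes was 1.77. WT1 held the highest mean of 16 lists and the lowest of 10, WT2 the highest of 14, and WT4 the lowest of 15. Immediate early genes, which respond within minutes to stimulation, had means of 8.26 in WT1, 8.08 in WT2, 7.26 in WT3, 7.14 in WT4 and 7.56 in WT5. The median of that list was 7.29, and 6.94 without WT1 and WT2. Atf3, one of its members, measured 9.55, 7.47, 6.07, 6.08 and 6.13. DNA replication ran the other way, with means of 8.39 in WT1, 8.72 in WT2, 8.94 in WT5 and 9.03 in WT3, and WT4 between the last pair. Without WT1 and WT2 no list had an SD of 0.5 or more, and that of the macrophage list was 0.08.

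**Figure D5:**
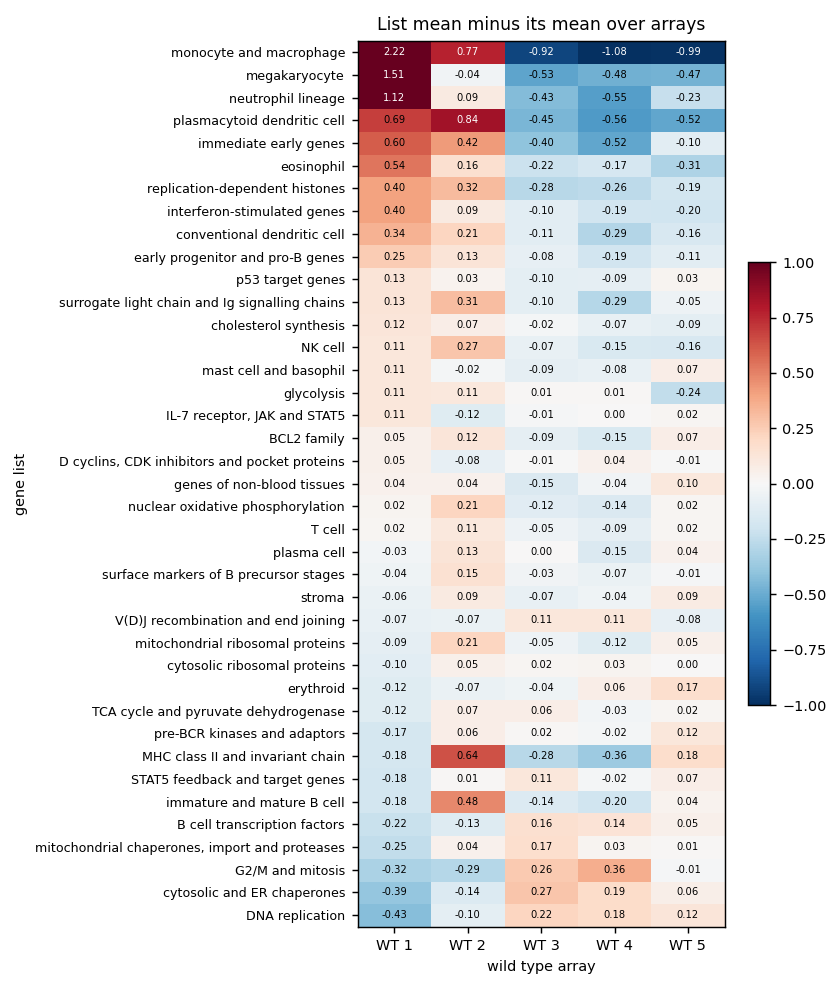
Mean of each gene list (sex-linked genes not drawn) on each wild type array minus the mean of that list over the 5 arrays, in log2 units (numbers in the cells, colours capped at 1 in either direction). The macrophage list runs from 2.22 above its mean in WT1 to 1.08 below it in WT4, DNA replication is 0.43 below its mean in WT1, and the cytosolic ribosomal proteins stay within 0.10.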

How the data were processed

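Gene-level log2 values were made by the authors with RMA in Affymetrix Expression Console, per the labels and the submitters' processing notes; no version, build or annotation release is given in the sources used here. This method corrects background array by array and fits quantile normalization and probe effects over arrays together. Levels therefore keep probe affinity, and differences between arrays are relative. Of 35556 probe sets, 21789 had 1 symbol in the platform annotation (21698 matched RefSeq names of GRCm38.p6), 1621 had several and 12146 were not listed; only the first were used. Where a symbol had several probe sets (999 symbols), the one with the highest 10-array mean was kept. Python 3.11.15, numpy 2.4.6 and pandas 2.3.3 gave means, SDs, spans and ranks, and with 1 group there was no test. The counting of wide genes was run on simulated data as a check of the code only. The simulated noise was equal for all genes, and the raised genes were raised in 1 array, unlike the spread of the data. The array gives no read depth. Genes named were the 5 markers, the 30 highest, the 20 of largest and 10 of smallest SD, members of the 9 B cell lists, and in each other list the 3 highest, the lowest and the one of largest SD, without predicted genes, pseudogenes and small RNA genes. Adgre1, C1qb, Cd3e, Csf1r, Hspa9, Itga2b, Klf1, Mpeg1, Mpo and the kappa and WT3 to WT5 examples were added after their values were seen. The members and lists were chosen with earlier results of these data known. Alternatives left out arrays and changed normalization, probe set choice, detection line and span.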

Additional observations from a re-analysis of the deposited data

Results flagged for a closer look

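The closer look took 157 genes, which were not all of those named, and 40 list means. Of these, 11 had 1 array whose distance to the nearest other exceeded 0.71 of the range of the 5. That is the 95% critical value of Dixon's test. Chance gives about 1 in 20 such groups, so the number alone is no sign of a pattern. In 8 of them WT1 stood apart. It was high in Ppbp at 8.18 (nearest array 4.15), Eif2s3y at 7.14 (nearest 2.57), Uty at 6.39 (nearest 3.49), Kdm5d at 6.03 (nearest 3.88) and the mean of the megakaryocyte list at 7.23 (nearest 5.68). It was low in Cd22 at 8.48 (nearest 9.50), Rps12 at 12.48 (nearest 12.68) and Pou2af1 at 11.15 (nearest 11.27). WT5 was high in Rag1 at 9.12 (nearest 8.60) and low in the mean of the glycolysis list at 8.19 (nearest 8.44). WT2 was high in the mean of the surface markers of B precursor stages at 9.58 (nearest 9.42). Batf3 and Clec9a, named above, were not among the 157 but exceeded the value too. WT4 was low in Batf3 at 4.92 (nearest 5.25), and WT2 was high in Clec9a at 3.69 (nearest 3.45).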

How the results depend on the processing

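The counts that rest on spread depended on the arrays and on the size asked for. Genes spanning 2 log2 units or more numbered 374, and 102 to 369 with 1 array left out. The 102 came without WT1 and were all among the 374. Without WT1 and WT2 the count was 6, of which 5 were among the 374. Leaving out arrays cannot widen the span of a gene, so this overlap follows from the rule, apart from shifts of the detection line. A span of 1 unit gave 2312 genes, of 3 units 156, and an SD of 1 or more 247. Lists whose mean had an SD of 0.5 or more numbered 5, and 2 to 6 with 1 array left out; the 2 came without WT1, and without WT1 and WT2 there were 0. The first principal component held 75.1% of the variance, 74.7% to 83.3% with 1 array left out, 78.9% without WT1 and WT2 and 69.5% with no filter on dim genes. Genes above the detection line numbered 9345 to 13719, lists with a median above the 90th percentile of all genes 12 to 14, and 25 to 30 of the top 30 genes were shared, over the alternatives run for each. Of the values of single lists and genes, 36 of 492 list levels, 27 of 3443 gene levels and 77 of 451 list spreads moved by more than their SD or by over 1.5 times. These totals pool unlike settings. Without WT1 and WT2, 29 of 41 list spreads and 10 of 41 list levels moved. With the median over list members, 17 of 41 list spreads moved. All 27 gene levels moved with the mean of all probe sets of a symbol. Without WT1 and WT2, 0 of 313 gene levels counted as moved, though Anpep, with an SD of 2.87, went from 7.61 to 5.65. No paired analysis was possible because a single group was described and no test was made. The number of arrays, 5, limits the precision of every mean.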

Other observations

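Gene lists not described above gave further values. Among the BCL2 family, 12 of 12 measured genes were above the detection line, with a median of 7.12. Bak1, a killer protein of the mitochondrial membrane, measured 10.85 in WT1, 10.76 in WT2, 10.28 in WT3, 9.95 in WT4 and 10.14 in WT5, and Bcl2l1, which encodes the survival protein BCL-XL, was at 8.91 ± 0.25 (SD, n = 5). Bcl2 measured 5.97, 5.55, 6.83, 6.80 and 6.22. Of 17 p53 target genes 13 were above the line, where 61.3% of all genes were. The highest was Btg2, an inhibitor of division, at 9.47 ± 0.42 (SD, n = 5). Cdkn1c, a CDK inhibitor, measured 10.39 in WT1, 7.54 in WT2, 6.18 in WT3, 6.27 in WT4 and 6.30 in WT5, a span of 4.22, the widest of its list, and its mean was 7.33 with all arrays and 6.25 without WT1 and WT2.

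Of 16 interferon-stimulated genes 8 were above the line, where 61.3% of all genes were, and the median of the list was 4.99, below the line. Ifitm3, a membrane protein that blocks virus entry, measured 10.71 in WT1, 8.68 in WT2, 8.39 in WT3, 7.41 in WT4 and 6.96 in WT5, while Mx1, an antiviral GTPase, stayed at 3.07 ± 0.08 (SD, n = 5). Among plasma cell genes, Mzb1, a chaperone of immunoglobulin assembly that earlier B cells also make, was at 10.64 ± 0.37 (SD, n = 5), and Jchain, the joining chain of secreted antibody, was below the line at 4.33. Prg3 and Prg2, granule proteins of eosinophils, were highest in WT1 at 7.53 and 7.66 and lay between 5.46 and 5.79 in WT3, WT4 and WT5. They were the only 2 of the 5 eosinophil genes highest in WT1. Il5ra was highest in WT4 at 5.92, with 5.52 in WT1, and Epx was highest in WT2 at 4.67, with 4.33 in WT1.

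The following groups were chosen after their values were seen, and were not tested. Among the variable segments of the kappa light chain, 8 had a probe set of their own, of which Igkv4-91 lay below the line at 3.75, and all 8 were highest in WT2, as were 23.7% of all genes above the line. Their mean was 6.47 in WT1, 7.39 in WT2, 5.78 in WT3, 5.53 in WT4 and 6.43 in WT5. Igkv9-120 measured 8.02, 9.06, 7.45, 7.26 and 7.95 in the same order. WT2 was also the highest array for 7 of 8 MHC class II genes and for Ms4a1, Cd40 and Cd2. It was the highest for 6 of the 14 immature and mature B cell genes and 4 of the 14 surface genes of B precursors. Cxcr5 at 7.65 and Ccr6 at 4.67 were highest in WT1, Cd55 at 8.24 in WT4, and Cd22 at 9.70 and Cd69 at 9.28 in WT5.

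Among WT3, WT4 and WT5, few genes differed widely, and Mmp12, Ighg3 and Prrg4 had the widest spans, 2.47, 2.10 and 2.00. Next came Klhl32, which measured 3.59 in WT1, 4.61 in WT2, 6.58 in WT3, 6.98 in WT4 and 4.99 in WT5. The next in order were Cenpe, Slf1 and Knl1, with spans of 1.94, 1.93 and 1.88, each highest in WT4 and second in WT3. Knl1, a kinetochore scaffold, measured 8.09, 7.64, 9.14, 9.65 and 7.77.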
